A study of Mus musculus with 2 samples.

Results

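The cytoplasmic ribosomal protein genes of the mouse were described in 2 libraries of total RNA labelled megakaryocyte, the bone marrow cell that sheds platelets. Members were the protein-coding genes whose symbol is Rpl or Rps followed directly by a digit, with Rplp0, Rplp1, Rplp2 and Rpsa added and the Rps6k kinases, Rps19bp1 and symbols containing "-ps" left out. The rule took 85 of 21461 nuclear protein-coding genes, 52 of the large and 33 of the small ribosomal subunit. Of these, 8 were counted as paralogs, which are genes named as relatives of another member, and 77 were not. The paralogs were Rpl3l, Rpl7l1, Rpl10l, Rpl22l1, Rpl36al, Rpl39l, Rps27l and Rps27rt.

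The cells were primary, taken from C57BL/6J males as adults (5 to 6 weeks old), and the labels name the same donor for both libraries. According to its title, the isolation protocol covers bone marrow megakaryocytes and erythroid cells alike. Ribosomal RNA was depleted and 100 ng of RNA went into each ScriptSeq library. The stated sizes were 221 to 1000 nucleotides in library 1, and in library 2 they began at 200. The series holds no other group and no treatment, so the comparisons below are between genes and between the 2 libraries, and the spread between libraries may be technical.

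Ribosomal proteins coat and fold the ribosomal RNA of the large and small subunits, and nearly all are needed once per ribosome in every cell type. Their messenger RNAs are short and abundant, and most begin with a run of pyrimidines, the terminal oligopyrimidine tract, through which the mTOR pathway controls their translation. Mammalian genomes also hold many processed pseudogenes of these genes, which are DNA copies of spliced messenger RNA and lack introns, and some of the genes hold small nucleolar RNAs (snoRNAs) in their introns.

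Many reads of this family were assigned to near-identical copies, so the coding sequences of 2 genes and their relatives are shown first. The sequences are those of GENCODE M21 transcripts (GRCm38, also called mm10), 5′ to 3′, with each base that differs from the first gene of its set in capitals. Rpl39, one of the smallest ribosomal proteins, lies at X:37082520-37085402 on the minus strand. Its processed pseudogene Rpl39-ps, at 15:102635038-102635188 on the plus strand, matched the first 150 of the 156 coding bases with 1 difference. The paralog Rpl39l, at 16:10170226-10174911 on the plus strand, differed from Rpl39 at 23 of 156 bases.
Rpl39: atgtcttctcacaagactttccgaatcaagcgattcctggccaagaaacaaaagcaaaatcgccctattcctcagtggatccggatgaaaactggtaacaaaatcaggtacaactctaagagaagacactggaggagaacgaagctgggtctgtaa
Rpl39-ps: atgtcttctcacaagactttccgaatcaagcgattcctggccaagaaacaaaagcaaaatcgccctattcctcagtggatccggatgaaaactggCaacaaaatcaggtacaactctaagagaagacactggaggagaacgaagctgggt
Rpl39l: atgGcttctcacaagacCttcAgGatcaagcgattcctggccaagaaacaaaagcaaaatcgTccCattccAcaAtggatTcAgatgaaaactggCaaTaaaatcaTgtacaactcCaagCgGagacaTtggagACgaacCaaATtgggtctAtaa

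The second set is Rps27, a zinc-binding protein of the small subunit at 3:90212522-90213651 on the minus strand, with its paralogs Rps27rt (9:114982366-114982739, minus strand) and Rps27l (9:66946086-66949516, plus strand). Rps27rt, annotated as protein-coding, had 0 differences from Rps27 over all 255 coding bases, so that its sequence is the same as the line for Rps27. Rps27l, known as a p53-responsive relative, differed at 60 of the 253 coding bases that could be aligned.
Rps27: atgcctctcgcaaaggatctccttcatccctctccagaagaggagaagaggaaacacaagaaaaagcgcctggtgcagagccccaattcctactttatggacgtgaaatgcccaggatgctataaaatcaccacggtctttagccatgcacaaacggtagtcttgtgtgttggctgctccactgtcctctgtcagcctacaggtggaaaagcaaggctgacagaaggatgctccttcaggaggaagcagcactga
Rps27l: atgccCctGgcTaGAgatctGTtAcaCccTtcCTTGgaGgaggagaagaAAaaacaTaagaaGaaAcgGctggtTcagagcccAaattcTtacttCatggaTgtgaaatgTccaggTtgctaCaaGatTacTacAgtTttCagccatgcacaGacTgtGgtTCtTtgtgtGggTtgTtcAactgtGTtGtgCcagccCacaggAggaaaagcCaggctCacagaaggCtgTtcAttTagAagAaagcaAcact

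The members were among the most abundant nuclear protein-coding genes of both libraries. Levels are given as TPM, a share of all transcripts on a fixed total that is corrected for the length of each gene, so that levels of different genes can be compared. The median over all 85 members of the mean TPM was 322.59, with 305.88 in library 1 and 356.54 in library 2, against 0.28 over all nuclear protein-coding genes. At 100 TPM or more in both libraries stood 75 members (88.2%), against a background of 1.62% of all nuclear protein-coding genes. Of the 10 members below that level, 6 were paralogs and 4 (Rpl27, Rpl5, Rpl10a and Rps16) were not. For Rpl27, Rpl5 and Rpl10a many reads were assigned to near-identical copies, as given below. A level of 1 TPM or more in both libraries was reached by 82 members, and the other 3 were paralogs.

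Nuclear protein-coding genes summed to 240043 TPM in library 1 and 267991 in library 2, out of the same fixed total. A higher TPM in library 2 is thus in part shared by nuclear protein-coding genes as a whole. Together the members held 11.99% of the TPM of nuclear protein-coding genes in library 1, and 12.79% in the other. As the messenger RNAs are short, their share of reads was smaller: 3.78% of expected counts in library 1 (exact Clopper-Pearson 95% interval 3.77 to 3.79%) and 4.12% in library 2 (4.12 to 4.13%). Such intervals and the limits given for genes at 0 cover counting error only, with each read taken as independent. As several reads can stem from a single molecule, they can be too narrow even for that error. In RNA of mixed cells, fewer cells of a type and less RNA per cell cannot be told apart.

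The label was checked against marker genes. Of 12 megakaryocyte markers, 10 were under 1 TPM in both libraries, 3 of them at 0 counts, and the list summed to 9.44 TPM in library 1 and 11.1 in library 2. Pf4, the platelet chemokine, had 0 and 3 counts. The 10 neutrophil markers summed to 14394 and 13660 TPM and the 6 monocyte markers to 7702 and 10091, led by S100a8 at 7266 and 7929 and by Lyz2 at 5969 and 8031 TPM. The defining markers thus went against the label, and the levels below are those of libraries labelled megakaryocyte in which neutrophil and monocyte markers were abundant. Library 1 held 42703213 expected counts in all and library 2 held 50532821.

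Large subunit genes had a median of 316.49 TPM (288.79 in library 1 and 344.47 in library 2) and small subunit genes a median of 377.12 TPM (339.12 and 404.8). Without the paralogs the medians were 351.88 TPM over 46 large and 377.12 TPM over 31 small subunit genes. With annotated in place of effective lengths the order of the subunits turned, to 690.59 TPM for the large and 658.81 TPM for the small subunit. The range within each subunit was far wider than the gap between the subunits. Large subunit genes other than paralogs ran from 13.9 to 1176 TPM and small subunit genes from 98.3 to 935 TPM. Over the 77 members that are not paralogs, log2 levels in the 2 libraries had a Pearson r of 0.99, a description of genes that share both libraries.

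**Figure D1:**
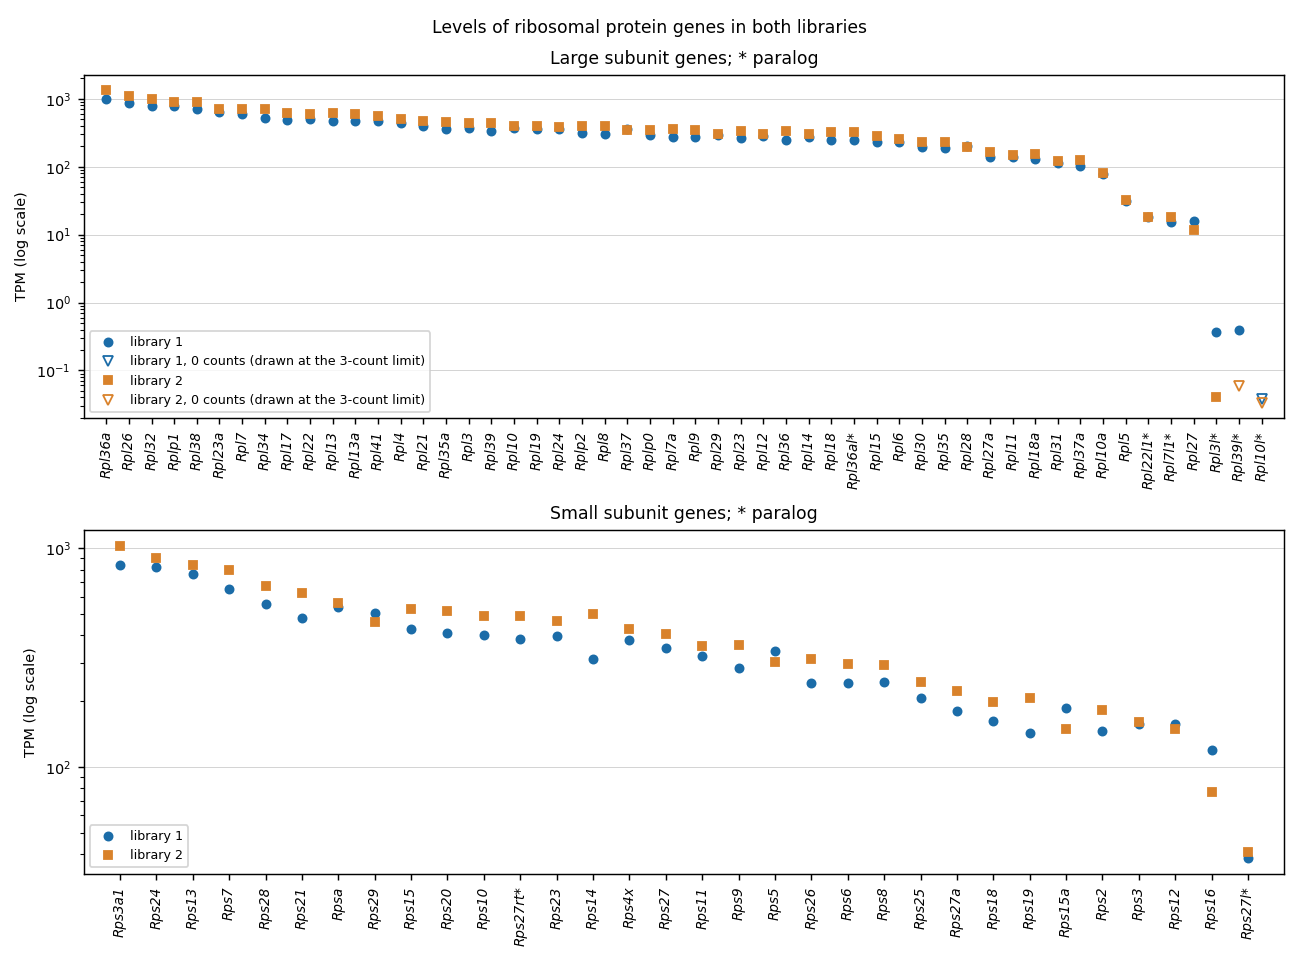
TPM on a log scale of the ribosomal protein genes in library 1 (circles) and library 2 (squares), ordered by mean level within the large (upper panel) and small subunit (lower panel). Open triangles mark 0 counts and are drawn at the level of 3 counts. Most genes lie between 100 and 1000 TPM, and Rpl27, Rpl5 and most paralogs lie lower.

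Rpl36a, a large subunit protein near the site where empty transfer RNA leaves, was the highest member, at 1008 TPM in library 1 and 1344 in library 2 (1176 ± 237, SD, n = 2). Rpl26, which lines the region of the exit tunnel and is also known to bind p53 messenger RNA, followed at 872 and 1117 TPM (994 ± 173). Rpl32 stood at 789 and 1010 TPM (899 ± 157). By TPM library 2 was the higher in each of these genes, as it was in the sum over nuclear protein-coding genes. The order of Rpl36a over Rpl26 over Rpl32 was the same in both libraries. The gaps between these neighbours did not exceed the SD of the higher gene.

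Rplp1, an acidic protein of the stalk that recruits translation factors, stood at 776 and 887 TPM, and Rpl38, known for its part in the translation of Hox messenger RNAs, at 713 and 890 TPM. Rpl23a, near the exit of the nascent chain, stood at 647 and 706 TPM, and Rpl7 at 594 and 697 TPM. The last of the 10 highest large subunit genes lay close together. These were Rpl34 at 514 and 712 TPM, Rpl17 at 491 and 617 TPM, and Rpl22, which is needed for the development of alpha-beta T cells, at 501 and 596 TPM.

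In the small subunit, Rps3a1 led at 840 TPM in library 1 and 1031 in library 2 (935 ± 135). Rps24, one of the genes mutated in Diamond-Blackfan anaemia, stood at 826 and 905 TPM (865 ± 55.6), and Rps13 at 764 and 843 TPM (803 ± 55.9). Rps7, another Diamond-Blackfan anaemia gene, stood at 652 and 796 TPM. The 3 leading small subunit genes had the same order in both libraries, with gaps smaller than the SD of Rps3a1 from the first to the second.

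Rps28 stood at 556 and 673 TPM and Rps21 at 481 and 628 TPM. Rpsa, which also serves as a laminin receptor, stood at 537 and 561 TPM. Rps29 and Rps15 closed the 10 highest, at 506 and 458 TPM and at 430 and 526 TPM. Of the high members named here from both subunits, Rps29 alone was lower in library 2 by TPM.

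The lowest large subunit genes other than paralogs were Rpl27, Rpl5, Rpl10a, Rpl37a and Rpl31. Rpl27 (11:101442298-101445529, plus strand) stood at 16.2 TPM in library 1 and 11.7 in library 2 (13.9 ± 3.18). Rpl5 (5:107900502-107909005, plus strand), which with Rpl11 and 5S ribosomal RNA restrains Mdm2, stood at 31.0 and 31.9 TPM (31.5 ± 0.64). Both lay below every small subunit gene that is not a paralog, in both libraries. Rpl10a stood at 77.6 and 81.1 TPM, Rpl37a at 102 and 126 TPM, and Rpl31 at 113 and 122 TPM.

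The lowest small subunit genes spanned a narrower range. Rps16 (7:28350652-28353155, plus strand) was the lowest, at 120 TPM in library 1 and 76.5 in library 2 (98.3 ± 30.8). Rps12 stood at 157 and 150 TPM, Rps3, which also acts in DNA repair, at 157 and 161 TPM, Rps2 at 147 and 182 TPM, and Rps15a at 185 and 149 TPM. The mean levels of Rps12, Rps3, Rps2 and Rps15a lay between 153 and 167 TPM, a range smaller than the SD of Rps15a (25.9), so their order is not resolved. More counts were also assigned to near-identical copies of Rps12 than to Rps12 itself, as given below.

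The very low levels of Rpl27 and Rpl5 went with reads assigned to intronless copies elsewhere in the genome. A copy was a non-member gene with a transcript matching at least 50% of a member's coding sequence at 90% identity or more. This definition was chosen after the low levels had been seen. It found 731 copies of 78 members, of which 711 are annotated as pseudogenes and 17 as protein-coding, and 240 had counts in both libraries. Some copies match only part of a coding sequence. Others are longer genes that hold a whole one, such as Gins1 (1688 and 1804 counts), which matched 100% of that of Rpl41. All counts of such genes were taken as copy counts, including any from outside the match. The copies held 15.9% of the counts of members and copies together in library 1 and 17.2% in library 2.

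For Rpl27, 695 counts were assigned to the gene in library 1 and 588 in library 2. Its pseudogene Rpl27-ps3, whose copy of the coding sequence is 100% identical, was assigned 20846 and 32436 counts. Copies therefore held 96.8% and 98.2% of the counts of Rpl27 and its copies. For Rpl5, 4430 and 5292 counts were assigned to the gene, and 73270 and 101054 to Gm15500 (7:114705217-114706235, minus strand), a transcribed processed pseudogene with a coding sequence identical to that of Rpl5. Copies held 94.3% and 95.03% there. Which of 2 identical sequences a read came from cannot be told from that sequence, and how the deposited counts were divided between them was not tested.

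Copies held more than 50% of counts in both libraries for 5 members, and more than 10% for 19. Rps27 is not among them, because its identical relative Rps27rt is itself a member and was not counted as a copy. Rps27rt held 75.4% and 78.8% of the counts of that pair. Besides Rpl27 and Rpl5, the 5 were Rps12 (72.3% and 79.8%), Rpl39 (61.3% and 62.0%) and Rps6 (60.6% and 60.9%), the small subunit protein phosphorylated by the S6 kinases. Rpl39-ps, shown above with 1 difference from Rpl39, was assigned 21038 and 30568 counts, against 13263 and 18725 for Rpl39. Rps6-ps4, with an identical coding sequence, was assigned 24182 and 33396 counts, against 15796 and 21514 for Rps6. Rps23 lay near the middle at 46.6% and 51.0%, Rpl31 at 48.0% and 49.2%, and Rpl10a at 41.5% and 48.3%. Levels of these single genes are uncertain for this reason.

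**Figure D2:**
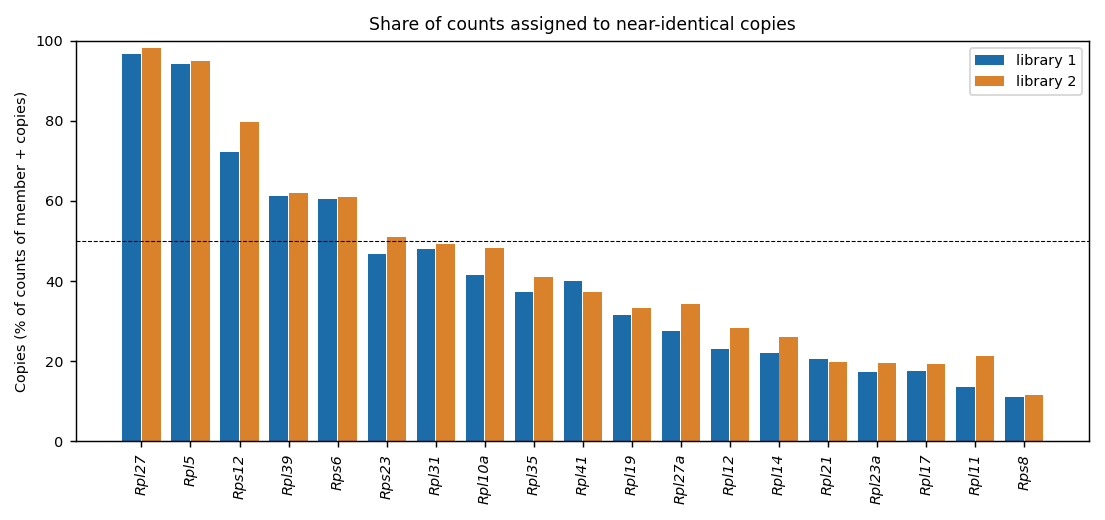
Share of counts assigned to near-identical copies, in percent of the counts of a member and its copies, for the 19 members above 10% in both libraries. Blue bars are library 1, orange bars library 2 and the dashed line is 50%. Rpl27 and Rpl5 stand above 90% in both libraries, and Rpl11 goes from 13.5% in library 1 to 21.3% in library 2.

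Summing the counts of each member with those of its copies narrowed the range. For this, the member's TPM was scaled by the summed counts over its own counts. Copy counts were thus taken at the member's effective length, and the deposited TPM values of the copies were not added. Rpl27 went from 13.9 to 578 TPM and Rpl5 from 31.5 to 593 TPM in the mean of both libraries. Rps12 went from 153 to 654 TPM, Rps6 from 268 to 684 TPM and Rpl10a from 79.4 to 145 TPM. Rpl39 went from 389 to 1016 TPM, level with Rpl26 (1015 TPM) and below Rpl36a (1177 TPM). That order depends on the length used, as Rpl39-ps alone had a deposited level of 1526 TPM in library 1 and 2125 in library 2. Over the 77 members that are not paralogs, the highest level was 84.6 times the lowest before and 11.7 times after summing. Their median went from 352.85 to 405.42 TPM, and the interquartile range of log2 levels from 1.24 to 1.08. Rps16 was then the lowest of these genes, at 101 TPM, since few counts lay in its copies. Genes with "-ps" in the symbol, of which 251 of 257 are annotated as pseudogenes, held 140583 counts in library 1 and 203356 in library 2, and 127 of them had 0 counts in both.

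**Figure D3:**
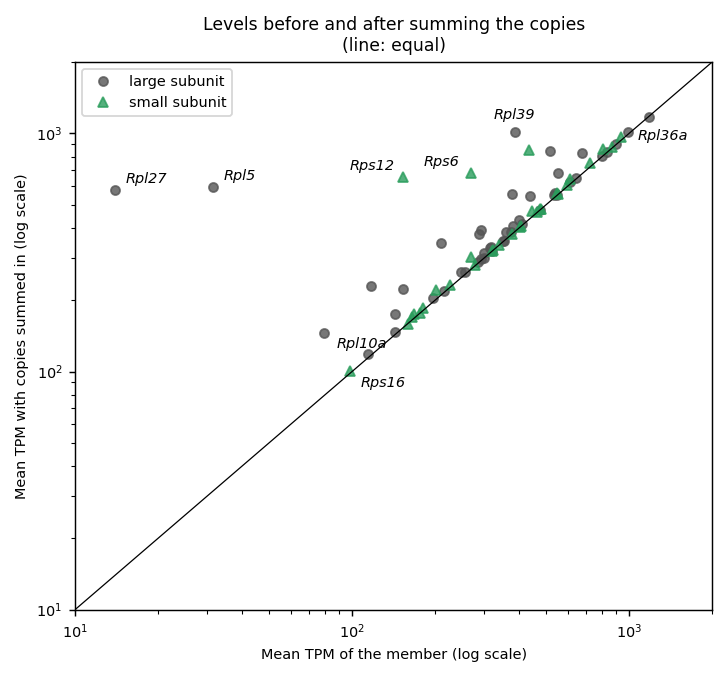
Mean TPM of each of the 77 members that are not paralogs (x axis) against its level with near-identical copies summed in (y axis), both on log scales, by subunit. Copy counts were summed in at the member's effective length. Points on the line have the same level in both, and Rpl27 and Rpl5 lie farthest above it.

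The paralogs fell into 3 levels. Rps27rt and Rpl36al were at levels like those of other ribosomal protein genes, Rps27l, Rpl22l1 and Rpl7l1 were between 15 and 41 TPM, and Rpl3l, Rpl39l and Rpl10l were at or near 0. Rps27rt stood at 385 TPM in library 1 and 492 in library 2, beside 349 and 405 TPM for Rps27. Its share of the pair was 52.4% and 54.8% of TPM, and 75.4% and 78.8% of counts. As the coding sequences are the same, the division between the pair is uncertain, and Rps27 has an effective length of only 54.3 and 45.7 bases in the deposited tables.

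Rpl36al, 87.8% identical to Rpl36a over the coding sequence, stood at 246 and 320 TPM and held 19.6% and 19.2% of the pair. Rps27l stood at 38.3 and 41.0 TPM and held 9.87% and 9.20% of its pair with Rps27. Rps27rt was left out of that pair, so the share depends on the uncertain division of reads between Rps27 and Rps27rt. Rpl22l1, known to be raised where Rpl22 is lost, stood at 18.0 and 18.3 TPM and held 3.47% and 2.97%. Rpl7l1 stood at 15.3 and 18.3 TPM and held 2.51% and 2.56% of its pair with Rpl7, although their coding sequences gave no match in the sequence search. These shares differed between the libraries by less than 1 percentage point each.

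Rpl3l, the paralog of heart and skeletal muscle, had 30 counts in library 1 and 4 in library 2, or 0.37 and 0.04 TPM, beside 366 and 436 TPM for Rpl3. Rpl39l, known from the testis, had 13 and 0 counts, and its level was 0.40 TPM in library 1. The 0 in library 2 allows a level of up to 0.060 TPM, the worth of 3 counts. Rpl10l, an intronless copy of the X-linked Rpl10 used in male germ cells, had 0 counts throughout, for which the limits are 0.038 and 0.033 TPM. Rpl10 itself stood at 369 and 393 TPM. Rps4l, a relative of the X-linked Rps4x, is annotated as a pseudogene and so was no member. It stood at 2.33 and 3.21 TPM beside 382 and 426 TPM for Rps4x.

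**Figure D4:**
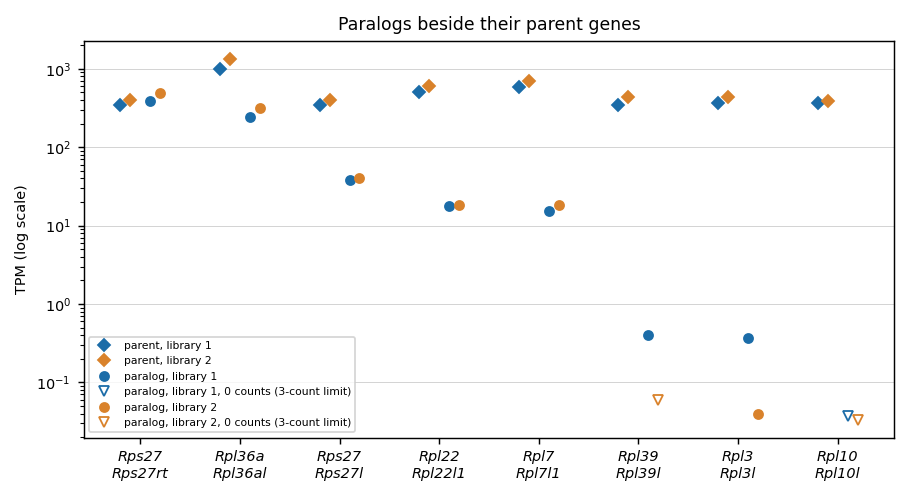
TPM on a log scale of the 8 paralogs (circles) beside their parent genes (diamonds), blue for library 1 and orange for library 2, ordered by the paralog's share. Open triangles mark 0 counts and are drawn at the level of 3 counts. Rps27rt lies beside Rps27, and Rpl39l, Rpl3l and Rpl10l lie more than 100 times below their parents.

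Ribosomal protein genes whose symbols fall outside the naming rule had similar levels. Fau, which encodes a ribosomal protein fused to a ubiquitin-like protein, stood at 250 and 316 TPM. Rack1, a scaffold on the small subunit, stood at 226 and 278 TPM. Both genes were thus within the range of the members.

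Total RNA also holds unspliced and noncoding transcripts, so the deposited share of each transcript was examined. The median share of a member's TPM in protein-coding transcripts was 99.5% in library 1 and 99.6% in library 2, and 74 and 73 members had a share of 90% or more. Transcripts without a match in GENCODE M21 counted as not protein-coding. Of 83 members with a leading transcript in both libraries, 82 were counted as having the same one in both. The exception was Rpl27, led by Rpl27-201 (49.8%) in library 1 and by Rpl27-202 (56.6%) in library 2, both protein-coding. Rpl13a is among the 82, but its leading transcript had no match in either library, so its being the same was not checked.

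In 3 members the share in transcripts annotated as protein-coding was under 50% in both libraries. Rps20 was led by Rps20-201, annotated as a retained intron, with 95.03% and 95.89% of its TPM, which left 11.9 and 12.2 TPM in protein-coding transcripts. Rpl12 was led by Rpl12-201, annotated as a target of nonsense-mediated decay, with 88.7% and 89.4%, which left 29.5 and 28.9 TPM. Rpl13a was led, at 69.4% and 69.8%, by a transcript whose ID had no match in GENCODE M21, so its type is not known. The 106 and 124 TPM in Rpl13a transcripts annotated as protein-coding are thus a lower limit. The division among transcripts of a gene is an estimate from short reads and has the same uncertainty as that among copies.

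Of the 82 members that reached 1 TPM in both libraries, 30 (36.6%) held an annotated snoRNA gene within their bounds, against 2.19% of 9100 nuclear protein-coding genes at that level. The 58 snoRNA genes, which guide chemical changes of ribosomal RNA, reached 5 in a single member. Counts in both libraries were found for 19 of them and 0 counts in both for 35. Together they held 2473 counts in library 1 and 1841 in library 2. The stated sizes began at 221 or 200 nucleotides, longer than most snoRNAs. The deposited effective lengths allow some shorter fragments, as Snora70, of 137 bases, had 2.45 bases in library 1 and 1.61 in library 2. With so few start positions, the counts of these snoRNA genes are no measure of snoRNA levels.

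Pyrimidine runs were sought in RefSeq sequence (GRCm38.p6) around the annotated start of each gene, a search added after the levels were known. Where a gene had more than 1 listed start, the start with the longest run was kept, for members and background alike. Genes with more listed starts thus had more chances of a run, and the windows below are at the kept starts. A run was 7 or more C or T bases in a row that touched the window from 20 bases before to 20 bases after the start, on the gene's strand. A run was present in 39 of 65 matched members (60%), against 32.6% of 7331 protein-coding genes at 1 TPM or more in both libraries and 33.7% of all 27025 genes of the table. The following windows show 20 bases before and 10 bases after the start, with the longest pyrimidine run in capitals as far as it lies in the window. The first 4 are the highest members with a run over the start base, and the last 2, the 2 highest members, had no run of 7.
Rpl38 (11:114668560-114668589, plus strand): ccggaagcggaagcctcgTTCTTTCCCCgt
Rpl34 (3:130730328-130730357, minus strand): ccgCCCCTTCCTTTTCCTCTTCCggggacg
Rps21 (2:180257359-180257388, plus strand): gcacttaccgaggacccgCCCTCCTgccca
Rps10 (17:27635235-27635264, minus strand): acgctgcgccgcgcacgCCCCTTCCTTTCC
Rpl36a (X:134585634-134585663, plus strand): aggaagtgcacccaggcaccgcctataaaC
Rpl26 (11:68901546-68901575, plus strand): gagaTCTCgcggcaacttacagaaccggaa

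A match to a run is a description of these letters, and an annotated start can differ from the one used. Among members that are not paralogs, the 35 with a run had a median of 293 TPM (31.5 to 865) and the 22 without had a median of 392 TPM (13.9 to 1176). The ranges overlapped, and the group without a run held both the highest and the lowest of these levels. The lowest gene of each group, Rpl5 with a run and Rpl27 without, had most reads assigned to near-identical copies. With copies summed in they stood at 593 and 578 TPM, and the comparison was not repeated with such levels.

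Levels moved with the length of the gene model. Effective length, the number of start positions a fragment can have in a transcript, had a median of 502 bases over the members in library 1, against 2166 over nuclear protein-coding genes at 1 TPM or more in both libraries. The 22 members other than paralogs under 300 bases had a median of 501 TPM, the 27 from 300 to 600 bases had 323 TPM and the 28 of 600 bases or more had 278 TPM. Spearman's rho of level and effective length over these 77 genes was -0.35, a description in which TPM itself contains the length.

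Between the libraries, the members moved little. Counts were scaled by the trimmed mean of M-values (TMM), and a gene was called where the libraries differed by 1.5-fold or more. With 1 library on each side there is no test, and the intervals given cover counting error only. Of 83 members with a mean count of 10 or more, 0 were called higher in library 2, against a background of 8.1% of 12081 nuclear protein-coding genes. Called higher in library 1 were 2 members (2.41%), Rps16 and Rpl3l, against a background of 9.8%. The background takes in genes of far lower counts than most members, and no background of matched counts was computed.

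Rps16 had 4819 counts in library 1 and 3275 in library 2, a log2 ratio of library 2 over library 1 of -0.80 (exact 95% counting interval -0.87 to -0.74). Rpl3l had 30 and 4 counts, a log2 ratio of -3.01 (-5.12 to -1.65). Rps14, the gene linked to the anaemia of the 5q- syndrome, and Rps19, the gene most often mutated in Diamond-Blackfan anaemia, had the highest ratios, at 0.47 (0.43 to 0.51) and 0.45 (0.41 to 0.50). Rps14 rested on 8602 and 14116 counts and Rps19 on 7761 and 12614. Rps16 stood apart in direction from most of its subunit, of which 25 of 33 genes had a ratio above 0.

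The median log2 ratio was 0.16 over the members and 0.00 over all nuclear protein-coding genes, and 65 of 83 members lay above 0. By the ratio of deposited TPM the members' median was 0.26. Large and small subunit genes had medians of 0.16 and 0.17. Short genes of any kind also had higher ratios: the median over other protein-coding genes was 0.13 under 300 bases, 0.13 from 300 to 600 bases and -0.01 at 600 bases or more, beside 0.20, 0.15 and 0.16 for the members other than paralogs. The lower bound of the stated fragment range differed between the libraries as given above. The part of fragment size in these ratios was not tested.

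**Figure D5:**
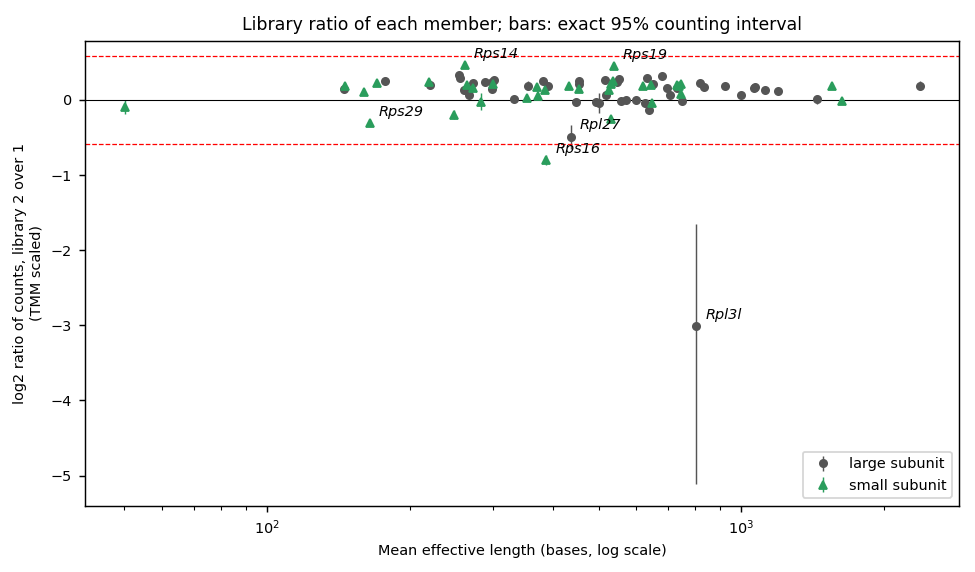
Log2 ratio of TMM-scaled counts, library 2 over library 1, of the 83 members with a mean count of 10 or more, against mean effective length in bases on a log scale. Bars are exact 95% counting intervals and dashed red lines mark 1.5-fold. Rps16 and Rpl3l lie below the lower line and no member lies above the upper one.

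Marker genes of other cell types moved between the same libraries. Of 10 erythroid markers 7 were called higher in library 1 and 1, the erythropoietin receptor gene Epor, higher in library 2, with a median log2 ratio of -1.15 and sums of 126 and 63.0 TPM. Of 6 T and NK cell markers 4 were called higher in library 1, with sums of 31.3 and 17.8 TPM. The neutrophil and monocyte lists had 0 genes called in either direction, with median log2 ratios of -0.20 and 0.18. The part of cell makeup in the ratios of the ribosomal protein genes was not tested.

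Other genes of protein synthesis had lower medians than the ribosomal protein genes, although single genes were as high or higher. The 38 translation factors had a median of 47.8 TPM, and 10 of 38 reached 100 TPM in both libraries. The highest were Eef1a1, which brings transfer RNA to the ribosome, at 2444 and 2640 TPM, its exchange factor subunit Eef1b2 at 396 and 482 TPM, Btf3 at 331 and 412 TPM and Tpt1 at 348 and 377 TPM. None of the 38 was called between the libraries, against backgrounds of 8.1% higher in library 2 and 9.8% higher in library 1. Their median log2 ratio was 0.09.

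Factors that assemble ribosomes in the nucleolus had a median of 6.93 TPM over the 39 of 40 listed genes with a row, and 1 of them reached 100 TPM in both libraries. That gene was Npm1, nucleophosmin, at 273 and 298 TPM. Nop58 and Nop56, core proteins of snoRNA particles, stood at 70.8 and 77.2 TPM and at 34.8 and 38.6 TPM, and Ncl, nucleolin, at 48.2 and 42.9 TPM. Of the 39, 2 were called higher in library 2 and 0 higher in library 1, against backgrounds of 8.1% and 9.8% of nuclear protein-coding genes.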

How the data were processed

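Total RNA of 2 libraries (1 group, n = 2, same donor) was analysed from the authors' deposited gene and transcript tables. The build was mm10 and the annotation GENCODE M4, per the deposited text files. Aligner, quantifier and their versions are not given in the sources used here. Expected counts, as deposited, are estimated reads per row, not normalized. The deposited TPM column gives length-corrected shares with the same sum in each table, deposited FPKM values are scaled by effective length and assigned fragments, and the deposited percent is each transcript's share of its gene. The counts of many members are not whole numbers, so reads were shared out among genes by a method that is not given, which affects members with near-identical copies.

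Symbols, types and coordinates came from GENCODE M21 (same build), which matched 42462 of 43346 mouse gene IDs. Counts were rounded to whole numbers and scaled with edgeR 4.0.16 (TMM) in R 4.3.3 over nuclear protein-coding genes. Log2 ratios add 0.5 counts, and calls need a mean count of 10 and 1.5-fold. The 1.5-fold rule was run on simulated counts with counting error only, and with 2-fold changes in genes of mean count 100 or more. That run does not cover lower counts, smaller changes or variation between libraries. No significance test was possible with 1 library a side. Copies were found among genes that are not members with BLAST+ 2.17.0 (90% identity, 50% of the coding sequence, same strand). Exact intervals used SciPy 1.17.1.

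Members and lists were chosen with earlier results of these data known. Named were the 10 highest and 5 lowest members of each subunit (lowest among those not paralogs), every paralog and parent, and members past 1.5-fold. Also named were members with a noncoding, unmatched or differing leading transcript, and the 4 highest genes of each comparison list. A few genes covered by this rule are not reported here individually; counts and medians include them. Members singled out for their copies, Rps14, Rps19 and the members of the printed start windows were chosen after their values were seen. Alternatives were DESeq2 1.42.0 size factors, summed counts, posterior mean TPM, FPKM, annotated lengths, other filters and folds, protein-coding transcripts, and each library left out. Summing copies was added after seeing the data.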

Additional observations from a re-analysis of the deposited data

How the results depend on the processing

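Levels depended most on how length and total were taken. With annotated in place of effective length, the median was 690.59 TPM for large and 658.81 TPM for small subunit genes, the reverse order of the main values, and the members' share of nuclear protein-coding TPM was 10.1% in place of 12.4%. Rescaling TPM to nuclear protein-coding genes gave medians of 1241 and 1483. Members of 300 bases or more in effective length gave 321.18 TPM for the small subunit. Protein-coding transcripts alone gave a share of 11.8%. With copy counts summed in at the members' effective lengths, an alternative chosen after seeing the data, the large subunit median was 366.40 TPM and the share 14.1%. The share of counts held by copies was 15.03% for annotated pseudogenes alone, in place of 16.54%, and 15.9% to 17.2% by library.

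By the ratio of TPM, 1 member (Rps14) was called higher in library 2, and the median log2 ratio of the members was 0.26 in place of 0.16. A mean count of 100 left 1 member higher in library 1 (Rps16), and a fold of 2 left 1 (Rpl3l). Leaving out each library gave 288.79 to 344.47 TPM for large and 339.12 to 404.8 TPM for small subunit genes, and shares of 11.99% to 12.79%. Library ratios have no value with a library left out. By counts in place of TPM, the Rps27l share was 37.4% in place of 9.53%, the Rps27rt share 77.1% in place of 53.6%, the Rpl7l1 share 6.89% in place of 2.53% and the Rpl22l1 share 5.92% in place of 3.22%. The Rps27l and Rps27rt shares both depend on the uncertain division of reads between Rps27 and Rps27rt. None of the alternatives run reversed the sign of a called ratio. No paired analysis was possible because the 2 libraries form a single group. Depth limits Rpl3l, Rpl39l and Rpl10l, each at 30 counts or fewer.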

Other observations

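Ribosomal proteins of mitochondria, which are encoded by separate nuclear genes, had a median of 9.6 TPM over 77 genes, and 0 of them reached 100 TPM in both. Mrps21 was the highest, at 83.4 TPM in library 1 and 113 in library 2, followed by Mrpl48 at 49.8 and 64.2 TPM, Mrpl30 at 43.1 and 52.2 TPM and Mrpl18 at 30.3 and 44.8 TPM. Of the 77, 7 were called higher in library 2 and 4 higher in library 1, against backgrounds of 8.1% and 9.8% of nuclear protein-coding genes. Their median log2 ratio was 0.13.

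Noncoding host genes of snoRNAs, which like many ribosomal protein messenger RNAs carry snoRNAs in their introns, had a median of 11.6 TPM over the 8 of 11 listed genes with a row. Gas5 was the highest, at 130 and 141 TPM, followed by Snhg5 at 28.6 and 26.0 TPM, Snhg3 at 21.7 and 30.4 TPM and Snhg12 at 11.2 and 12.03 TPM. None of the 8 was called between the libraries, against backgrounds of 8.1% higher in library 2 and 9.8% higher in library 1.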
